A study of Glycine max with 36 samples.

Results

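Small RNA hits on annotated genes were compared between soybean (Glycine max) seed coats taken from seeds of 10-25 mg and from seeds of 5-6 mg, to ask which hits change as the young seed coat grows and which changes 2 lines share. The comparison used 8 of the 36 libraries of the series, picked by line and by seed fresh weight. At 10-25 mg there was 1 library of Richland and 1 of T157, and at 5-6 mg there were 3 of Richland and 3 of T157. Richland has the genotype I R t and a yellow seed coat. T157 has the genotype i R t and an imperfect black seed coat, so the 2 lines differ in the labels at I and share R and t. Plants grew in a greenhouse, seed coats were dissected by hand, and the libraries were made from total RNA. The labels do not say whether libraries of a group came from separate plants, so p-values measure the spread between these libraries, which may be technical.

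Plant small RNAs include microRNAs, cut from hairpin transcripts, and small interfering RNAs, cut from double-stranded RNA, and dicer-like enzymes make both. An Argonaute protein carries either kind to matching RNA or DNA, which is then cut, blocked or marked for silencing. A microRNA is antisense to its target message, while fragments of the message itself are sense. In soybean seed coats the dominant allele I gives rise to small interfering RNAs of the chalcone synthase (CHS) genes and the coat stays yellow, whereas coats with i make pigment. The seed coat is maternal tissue around the embryo, and it grows by cell division and expansion while it supplies the embryo with sugars and amino acids.

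The measured quantity was the number of small RNA hits on the transcript model of a gene, both strands summed, for 52872 genes. Hits were found on 36623 of these genes in the 8 libraries, and 13868 genes passed the filter on low counts and were tested. Values are given as CPM, which are hits per M (1e+06) gene hits after scaling with TMM factors, and are levels of small RNA, not of messenger RNA. All read lengths are pooled in the deposited counts, reads were not followed between genes, and whether hits on a microRNA target come from the microRNA was not tested. In bulk tissue, fewer cells of a type and less RNA per cell cannot be told apart.

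The 2 libraries of 10-25 mg held 20.9 and 24.3 M reads, against 11.9 to 12.9 M reads at 5-6 mg. They had 27.3 and 22.6 M gene hits, against 6.49 to 9.21 M at 5-6 mg, which is 1.30 and 0.932 gene hits per read against 0.509 to 0.713. The 20 genes with most hits took 70.9 and 75.6% of hits at 10-25 mg, against 59.0 to 71.6% at 5-6 mg. TMM factors, which rest on the assumption that most genes do not change, were 0.74 and 0.53 at 10-25 mg against 0.92 to 1.36 at 5-6 mg. Depth, the yield of gene hits and seed weight therefore moved together. With all libraries thinned to the gene hits of the shallowest, 9344 of 12947 tested genes were called by edgeR's quasi-likelihood test. Thinning matched gene hits and not reads, and the part of the yield of hits per read was not tested. The labels name 2 library kits and 2 sequencer models without saying which served which library, so a difference of kit or sequencer and the difference of seed weight cannot be told apart.

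The profiles split by weight and not by line. Over the 13868 tested genes, the 2 libraries of 10-25 mg correlated with each other at r = 0.977 on a log2(hits per M + 1) scale, and the 6 libraries of 5-6 mg correlated with each other at 0.933 to 0.962. Between weights within a line, r was 0.585 to 0.589 in Richland and 0.535 to 0.595 in T157. The 2 libraries of 10-25 mg were closer to seed coats of 50-100 mg from Clark 63 and from a Clark line labelled mi, at 0.949 to 0.967, than to the younger coats of their own line, and their r with 20 libraries of other tissues was 0.682 to 0.890. The 5-6 mg libraries stood apart from those of the rest of the series, with r of 0.447 to 0.534 with the 2 Clark coats, 0.360 to 0.495 with immature Williams coats and 0.387 to 0.651 with the other tissues. In all 27 other libraries, leaving out 1 seedling cotyledon library with few hits, 19.6% of tested genes lay below the lowest 5-6 mg value and 5.26% above the highest. These correlations are across genes, which are not independent replicates, and they describe the libraries without a test.

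**Figure D1:**
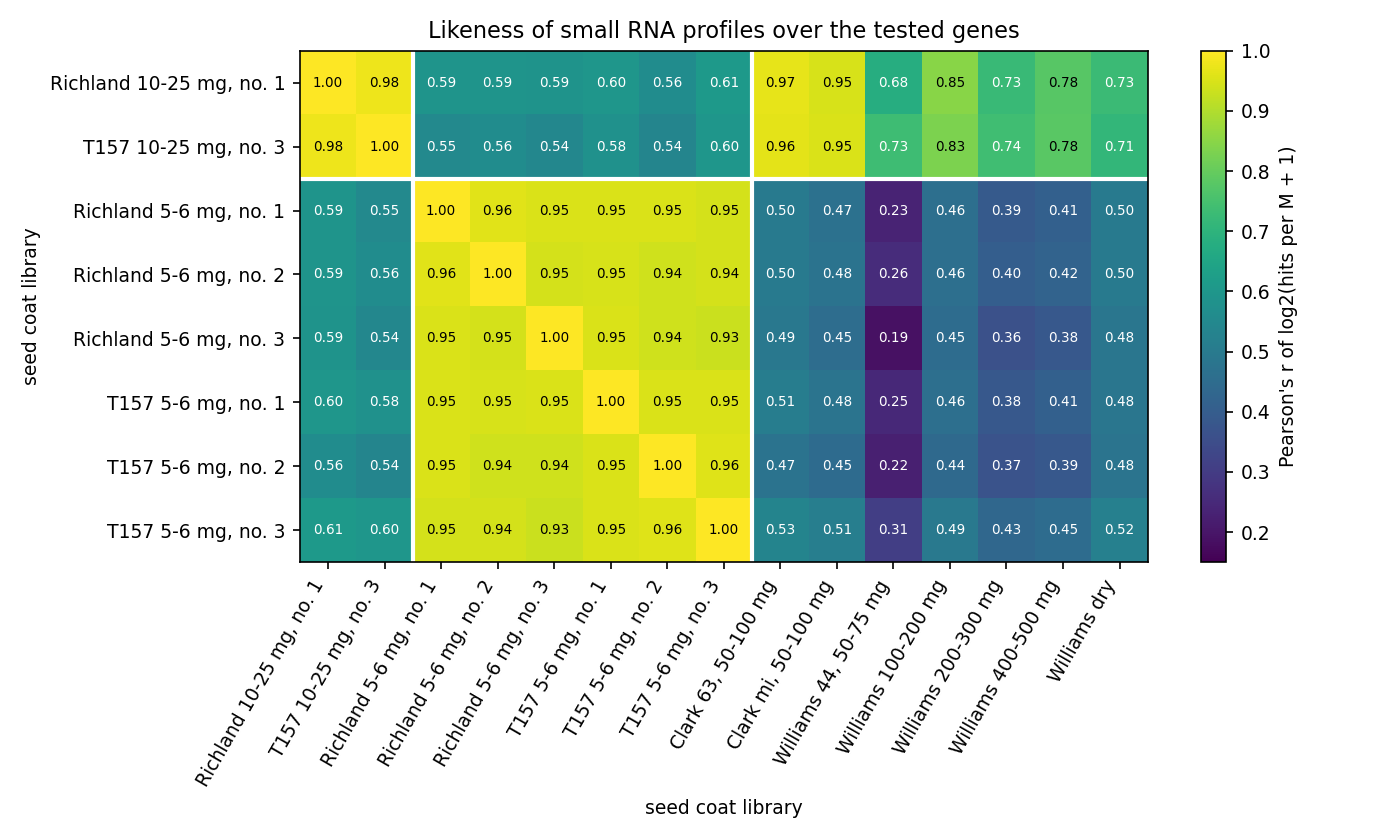
Pearson's r of log2(hits per M + 1) over 13868 tested genes, with the 8 libraries as rows and, as columns, the same libraries and 7 other seed coat libraries of the series with the seed weight where the labels give one. The 2 libraries of 10-25 mg form a block with each other (0.977) and with the Clark coats, and the 6 libraries of 5-6 mg form another block (0.933 to 0.962).

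Most tested genes differed between the weights. With edgeR's quasi-likelihood test, line as a term and Benjamini-Hochberg adjustment over all 13868 genes, 10843 genes (78.2%) passed an adjusted p of 0.05. Of these, 4836 (34.9% of tested genes) were higher at 10-25 mg and 6007 (43.3%) were lower. The median log2 fold change over tested genes was -0.48 with quartiles at -1.99 and 1.69, and 10328 called genes changed by more than 1 on the log2 scale and 4335 by more than 3. The split between higher and lower depended on scaling. It was 5484 to 4599 with RLE factors and 3307 to 7452 with no factors, where the median of all genes moved to -0.05 and to -1.37. The median of a gene group is therefore given below with its distance from the median of all genes.

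The 2 lines changed alike for most genes. A change was counted as shared when the gene was called and the 10-25 mg library of each line lay beyond all 3 of its own 5-6 mg libraries in the same direction. By this rule 10506 genes (75.8%) had a shared change, 4752 (34.3%) higher and 5754 (41.5%) lower. Called or not, 11206 genes (80.8%) lay beyond the 5-6 mg libraries of both lines in the same direction. When genes with near-equal counts, within 5% or 3 hits in every library, were taken as 1 set, the tested genes fell into 9818 sets. At least 1 gene had a shared higher change in 3486 sets and a shared lower change in 3618. The log2 ratios of the 2 lines had the same sign for 13027 genes (93.9%), with r = 0.96 and Spearman's rho of 0.94 across genes. A further 337 genes were called without meeting the rule for a shared change. In 142 genes the lines lay beyond their own 5-6 mg libraries in opposite directions, with 46 relatively higher in Richland and 96 in T157. Whether a change differed between the lines was tested as an interaction, and no gene passed in edgeR's quasi-likelihood test with Benjamini-Hochberg adjustment (smallest adjusted p = 0.368, 385 genes at an unadjusted p under 0.05) or in DESeq2 (0 genes). With 1 library per line at 10-25 mg, the interaction rests on the spread of the 5-6 mg libraries, and its misses do not show that the lines acted alike.

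**Figure D2:**
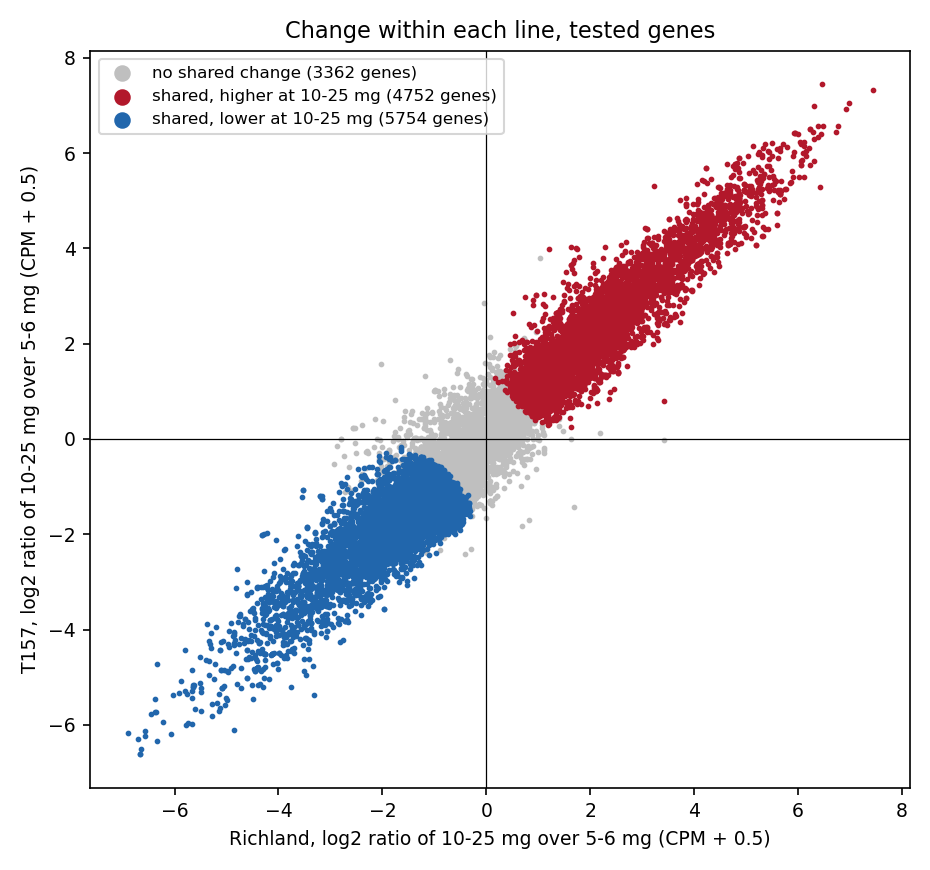
Log2 ratio of 10-25 mg over the mean of 5-6 mg (CPM + 0.5) for each of 13868 tested genes, Richland on the x axis and T157 on the y axis, with shared higher changes in red (4752 genes), shared lower changes in blue (5754) and the other genes in grey. The points follow the diagonal (r = 0.96).

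Gene families in which plant microRNAs are known to have targets were picked by description, and not each member need be a target. Their antisense hits were summed, the strand on which a microRNA lies. There were 18 families. In both lines, summed antisense CPM at 10-25 mg lay above every younger library of the same line in 5 families, below them in 8 and in neither position in 5. With both strands summed, 36.8% of single tested genes lay above by the same rule and 44% below. These counts therefore do not set the families apart. Family members often share hits, so a count of members is not a count of separate small RNAs. Counts of calls by family are to be read beside the 34.9% higher and 43.3% lower of all tested genes. Of the 5 higher families, 3 also lay above with hits per M taken without factors and with hits per M reads, namely the SPL factors, the growth-regulating factors and dicer-like 1. Of the 8 lower families, 6 kept their place under both, while HAM-type GRAS factors and AP2 and TOE factors lost it with hits per M reads. Values of single genes in the following paragraphs were in part chosen after they had been seen.

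SPL transcription factors gained antisense hits. Some members time the passage from juvenile to adult growth and are targets of miR156, and members were not checked for a miR156 site. The summed antisense level was 2570 CPM in Richland and 2891 CPM in T157 at 10-25 mg. The younger coats had 630, 527 and 540 CPM in Richland and 941, 859 and 687 CPM in T157. The groups did not overlap, and the 10-25 mg level was 4.54 times the 5-6 mg mean in Richland and 3.49 times in T157. Among all tested genes, 36.8% lay above the 5-6 mg libraries of their own line in both lines. Antisense hits made up 94.0 to 94.8% of hits on the family at 10-25 mg and 87.3 to 90% at 5-6 mg. Of 39 tested SPL genes, in 27 near-equal sets, 31 (79.5%) were called higher, against 34.9% of all tested genes, and 7 lower. The 31 higher genes lay in 19 of these sets. The median log2 fold change of the family was 1.93, which is 2.41 above that of all genes. With no scaling factors 24 were higher and 7 lower, with a median of 1.05. Glyma.02G177500, matched to SPL9, had 110 and 123 CPM at 10-25 mg. Its 5-6 mg levels were 24, 20.7 and 20.5 CPM in Richland and 37.8, 34.0 and 26.4 CPM in T157, a log2 fold change of 2.13 ± 0.29 (SE; adjusted p = 7.19e-08, edgeR quasi-likelihood). The 7 lower genes included Glyma.07G234200, matched to SPL1, with 0.4 and 0.249 CPM at 10-25 mg against 3.68 to 6.86 CPM at 5-6 mg, and its hits were mostly sense. The member with the smallest p, Glyma.09G082000 (SPL12), had only sense hits and rose by 4.75 ± 0.32 on the log2 scale, so not all of the rise on these genes was antisense. It belongs to a near-equal set of 7 genes, and the gene with most hits in that set is not in the SPL family. Its hits are thus not particular to SPL genes.

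Dicer-like 1, the enzyme that cuts microRNAs from their precursors and is itself a target of miR162, gained antisense hits in the 2 lines. Its 3 genes together, 2 of them tested, had 153 CPM antisense in Richland and 215 CPM in T157 at 10-25 mg. Levels at 5-6 mg were 13.7, 14.7 and 9.67 CPM in Richland and 12.4, 7.58 and 11.6 CPM in T157. The level at 10-25 mg was 12.1 times the 5-6 mg mean in Richland and 20.4 times in T157. Glyma.19G261200 rose by 4.00 ± 0.31 on the log2 scale (SE; adjusted p = 1.92e-13, edgeR quasi-likelihood) and Glyma.03G262100 by 3.46 ± 0.29, and both rose under each of the 5 scalings.

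Growth-regulating factors, which promote cell division in young organs and are targets of miR396, had 68.9 and 83.1 CPM of antisense hits at 10-25 mg. The 5-6 mg libraries had 12.7, 20.2 and 10.8 CPM in Richland and 13.4, 15.7 and 21.3 CPM in T157, so that the older coats were 4.74 and 4.94 times higher. Of 10 tested genes 5 were called higher and 2 lower, against 34.9% and 43.3% of all tested genes. The largest rise was in Glyma.09G068700 (GRF5), with 32.3 and 42.2 CPM at 10-25 mg against 0.239 to 2.64 CPM at 5-6 mg, and Glyma.11G025900 (GRF4) fell by 3.93 on the log2 scale. TCP factors of the TCP2, TCP4 and TCP10 type, targets of miR319 that restrain leaf growth, had 22.2 and 26.2 CPM against 7.08 to 13.5 CPM, with 3 genes called higher and 2 lower of 6. Their antisense sum no longer lay beyond the 5-6 mg libraries without scaling factors. PHO2-type ubiquitin-conjugating enzymes, which limit phosphate uptake and are targets of miR399, had 15.8 CPM in Richland and 8.396 CPM in T157 at 10-25 mg. At 5-6 mg they had 2.48 to 10.6 CPM in Richland and 4.10 to 4.92 CPM in T157, so the older T157 coat did not lie above all Richland coats. All 4 tested genes of that family were called higher, and with no factors none was, with a log2 ratio of -0.27 for the antisense sum in T157.

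Auxin receptors lost hits. The TIR1 and AFB F-box proteins bind auxin and are targets of miR393, and their genes also give rise to secondary small interfering RNAs in legumes. Their antisense sum was 285 CPM in Richland and 235 CPM in T157 at 10-25 mg. The younger coats had 1482, 1846 and 1759 CPM in Richland and 1885, 1569 and 950 CPM in T157, so that the older coats were 5.96 times lower in Richland and 6.25 times lower in T157. Antisense hits were 48.6 to 51.1% of the family's hits at 10-25 mg and 72.4 to 86.2% at 5-6 mg. Of 8 tested genes, 7 were called lower and none higher, against 43.3% and 34.9% of all tested genes. Glyma.16G050500 (AFB3) had 126 and 106 CPM at 10-25 mg, against 594, 730 and 724 CPM in Richland and 742, 595 and 410 CPM in T157 at 5-6 mg, a log2 fold change of -2.45 ± 0.38 (SE; adjusted p = 7.28e-07, edgeR quasi-likelihood).

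Auxin response factors of the ARF10, ARF16 and ARF17 type, repressors of auxin-regulated genes and targets of miR160, fell as a whole family. The antisense sum was 62.6 and 49.1 CPM at 10-25 mg. It was 294, 223 and 316 CPM in Richland and 379, 221 and 355 CPM in T157 at 5-6 mg, which made the older coats 4.44 and 6.48 times lower. All 12 tested genes were called lower under each of the 5 scalings, with a median log2 fold change of -2.32 under TMM (-1.84 relative to all genes). By contrast, antisense hits on ARF6 and ARF8 genes, activators and targets of miR167, were 179 and 156 CPM against 177 to 242 CPM and overlapped in Richland, with 2 of 11 genes called higher and 7 lower.

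The class III HD-ZIP factors, which set the upper side of leaves and pattern the vasculature and are targets of miR166, had the highest antisense level of the 18 families at 5-6 mg. Their sum was 4079 and 3674 CPM at 10-25 mg, against 8753, 12131 and 14622 CPM in Richland and 12050, 13193 and 8733 CPM in T157 at 5-6 mg. The older coats were 2.90 and 3.08 times lower, and 99.9 to 100% of hits were antisense in each library. All 14 tested genes, in 3 near-equal sets, were called lower, with a median log2 fold change of -2.44 (-1.96 relative to all genes), and 8 of them with RLE factors. Glyma.04G085000, described as homeobox gene 8, had 140 and 90.8 CPM at 10-25 mg against 464, 705 and 753 CPM in Richland and 615, 713 and 483 CPM in T157 at 5-6 mg. In the most abundant set, Glyma.05G101500 had 605 and 596 CPM against 985 to 1735 CPM, a log2 fold change of -1.16 (adjusted p = 0.00431, edgeR quasi-likelihood).

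NF-YA subunits, part of a CCAAT-binding factor and targets of miR169, showed a steeper drop, to 1.75 and 5.24 CPM of antisense hits at 10-25 mg against 30.9 to 63.1 CPM at 5-6 mg, which is 22.8 and 9.77 times lower. Of 14 tested genes, in 6 near-equal sets, 13 were called lower, against 43.3% of all tested genes. Argonaute 1, the main carrier of microRNAs and itself a target of miR168, had 33.21 and 34.997 CPM against 70.32 to 140.6 CPM, and its 3 tested genes were called lower. ATP sulfurylases, which start sulfate assimilation and are targets of miR395, were near the floor at 0.30 and 0.33 CPM against 4.96 to 17.2 CPM, with both genes called lower in 1 near-equal set. HAM-type GRAS factors (miR171), which maintain meristems, had 37.8 and 39.7 CPM against 41.7 to 77.9 CPM. AP2 and TOE factors (miR172), which delay flowering, had 75.3 and 54.9 CPM against 77.2 to 191 CPM. These last 2 families had 2 of 4 and 3 of 12 genes called lower and none higher, against 43.3% of all tested genes called lower. These counts do not set them apart as lower.

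In the other families the antisense sums lay in neither position. GAMYB-type factors, targets of miR159 with a role in anthers and seeds, had the highest antisense level at 10-25 mg, with 6007 and 4816 CPM. The younger coats had 3285, 2945 and 5461 CPM in Richland and 5583, 1600 and 2605 CPM in T157, and in T157 the groups overlapped. Of 7 tested GAMYB-type genes 2 were called higher and 3 lower. With no scaling factors none was higher and 3 were lower, and with RLE factors 2 were higher and none lower. NAC1 and CUC factors (miR164), which draw organ boundaries, had 34.0 and 27.8 CPM of antisense hits against 28.7 to 38.0 CPM. With both strands summed, 8 of 10 genes were called lower and 2 higher, against 43.3% and 34.9% of all tested genes. Laccases (miR397), which help to form lignin, had 5 of 15 genes called higher and 7 lower, near the shares of all tested genes (34.9% and 43.3%). Plantacyanins (miR408) had no call in 2 genes.

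**Figure D3:**
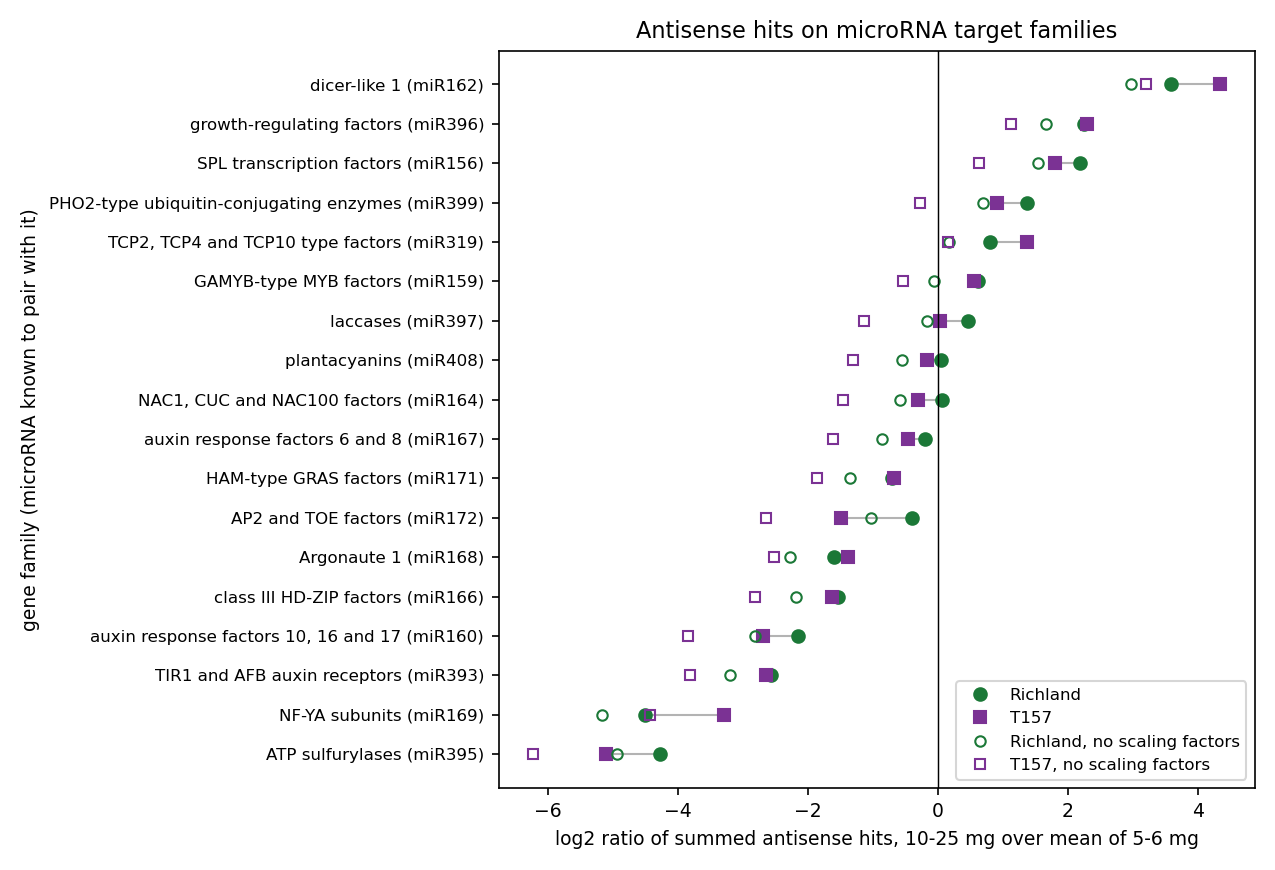
Log2 ratio of summed antisense hits, 10-25 mg over the mean of 5-6 mg, for 18 families with microRNA targets. Richland is shown as circles and T157 as squares, filled for TMM-scaled CPM and open for hits per M without scaling factors. Dicer-like 1, growth-regulating factors and SPL factors lie right of 0 and ATP sulfurylases, NF-YA subunits, auxin receptors, ARF10, ARF16 and ARF17, class III HD-ZIP factors and Argonaute 1 lie left of 0 under both scalings in both lines.

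The 33 genes of the silencing machinery together had 296 and 358 CPM at 10-25 mg, against 104.3 to 113.9 CPM at 5-6 mg. Antisense hits on dicer-like 1, described above, were 153 and 215 CPM of that sum at 10-25 mg and 7.58 to 14.7 CPM at 5-6 mg, so most of the difference of the sum lay in dicer-like 1. Of 18 tested genes 7 were called higher and 4 lower, a share (61.1%) below that of all tested genes (78.2%). With no factors 4 were higher and 7 lower. Besides dicer-like 1, dicer-like 4 (Glyma.13G156500), which makes secondary small interfering RNAs, had 24.2 and 29.2 CPM at 10-25 mg against 1.17 to 3.50 CPM at 5-6 mg. Dicer-like 2 (Glyma.09G025300) had 26.6 and 25.9 CPM against 13.4 to 20.5 CPM, a log2 fold change of 0.67 (adjusted p = 0.0493, edgeR quasi-likelihood). RNA-dependent RNA polymerase 6 (Glyma.04G067300), which copies RNA into the double strand that dicer-like 4 cuts, had 1.30 and 2.58 CPM at 10-25 mg. It had 18.8, 17.05 and 14.9 CPM in Richland and 9.45, 9.42 and 21.3 CPM in T157 at 5-6 mg. Its hits also changed strand, with 0% sense at 10-25 mg and 78.2% at 5-6 mg, and on antisense hits alone the difference was -0.69 on the log2 scale and not called (adjusted p = 0.221, edgeR quasi-likelihood).

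CHS genes make the first enzyme of flavonoid and anthocyanin synthesis. Small RNA hits on CHS7 (Glyma.01G228700) were 840 CPM in Richland and 25.4 CPM in T157 at 10-25 mg. Their 5-6 mg levels were 217, 182 and 280 CPM in Richland and 7.95, 9.62 and 8.93 CPM in T157. CHS8 (Glyma.11G011500) had 833 CPM in Richland and 25.3 CPM in T157 at 10-25 mg, against 209, 179 and 276 CPM in Richland and 7.71, 9.71 and 7.56 CPM in T157 at 5-6 mg. In each line the older coat lay above its 3 younger ones, while Richland stayed far above T157 at both weights. The log2 fold change was 1.72 ± 0.30 for CHS7 (SE; adjusted p = 4.32e-06, edgeR quasi-likelihood) and 1.76 ± 0.30 for CHS8 (adjusted p = 2.94e-06). With no scaling factors it was 0.82 for CHS7 and 0.86 for CHS8, and the older T157 coat lay only narrowly above its highest younger one. In the authors' deposited RPM, CHS7 had 806 RPM in Richland and 12.6 RPM in T157 at 10-25 mg. The 5-6 mg libraries had 153, 85.4 and 196 RPM in Richland and 5.00, 8.32 and 7.58 RPM in T157, so that by reads the older coat was 5.56 times higher in Richland and 1.81 times higher in T157. A difference of the change between the lines was not shown for CHS7 (interaction 0.37 on the log2 scale, adjusted p = 1.00, edgeR quasi-likelihood).

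Over the whole family, summed CHS hits were 12082 CPM in Richland and 552 CPM in T157 at 10-25 mg, against 4121 to 6208 CPM in Richland and 198 to 288 CPM in T157 at 5-6 mg. Without factors the older Richland coat still lay above its younger ones, while the older T157 coat lay within the range of its own. Of 20 tested CHS genes, in 12 near-equal sets, 18 (90%) were called higher and 1 lower under TMM factors, with a median log2 fold change of 0.98, but 4 higher and 1 lower with no factors, with a median of 0.10. Against the median of all genes the family was higher by 1.46 on the log2 scale under TMM. Besides CHS7 and CHS8, 3 genes outside the chromosome 8 cluster rose most, with 1.87 for Glyma.05G153200, 1.75 for Glyma.01G091400 and 1.64 for Glyma.02G130400. Those 3 had log2 ratios of 1.17 to 1.31 in Richland and 1.94 to 2.31 in T157. The 12 tested genes of the cluster on chromosome 8 rose by 0.79 to 0.99 under TMM, and Glyma.08G109300 had -0.08 with no factors. Glyma.19G105100 was not called (0.40, adjusted p = 0.378, edgeR quasi-likelihood), with 18.1 CPM in Richland and 0.582 CPM in T157 at 10-25 mg against 6.35 to 12.8 CPM and 0.820 to 1.37 CPM at 5-6 mg. Glyma.01G073600, matched to LAP6 of pollen wall synthesis, fell by 2.35 on the log2 scale. CHS7 sense hits were 78.5% in Richland and 91.2% in T157 at 10-25 mg, against 79.2% in Richland and 78.9% in T157 at 5-6 mg.

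**Figure D4:**
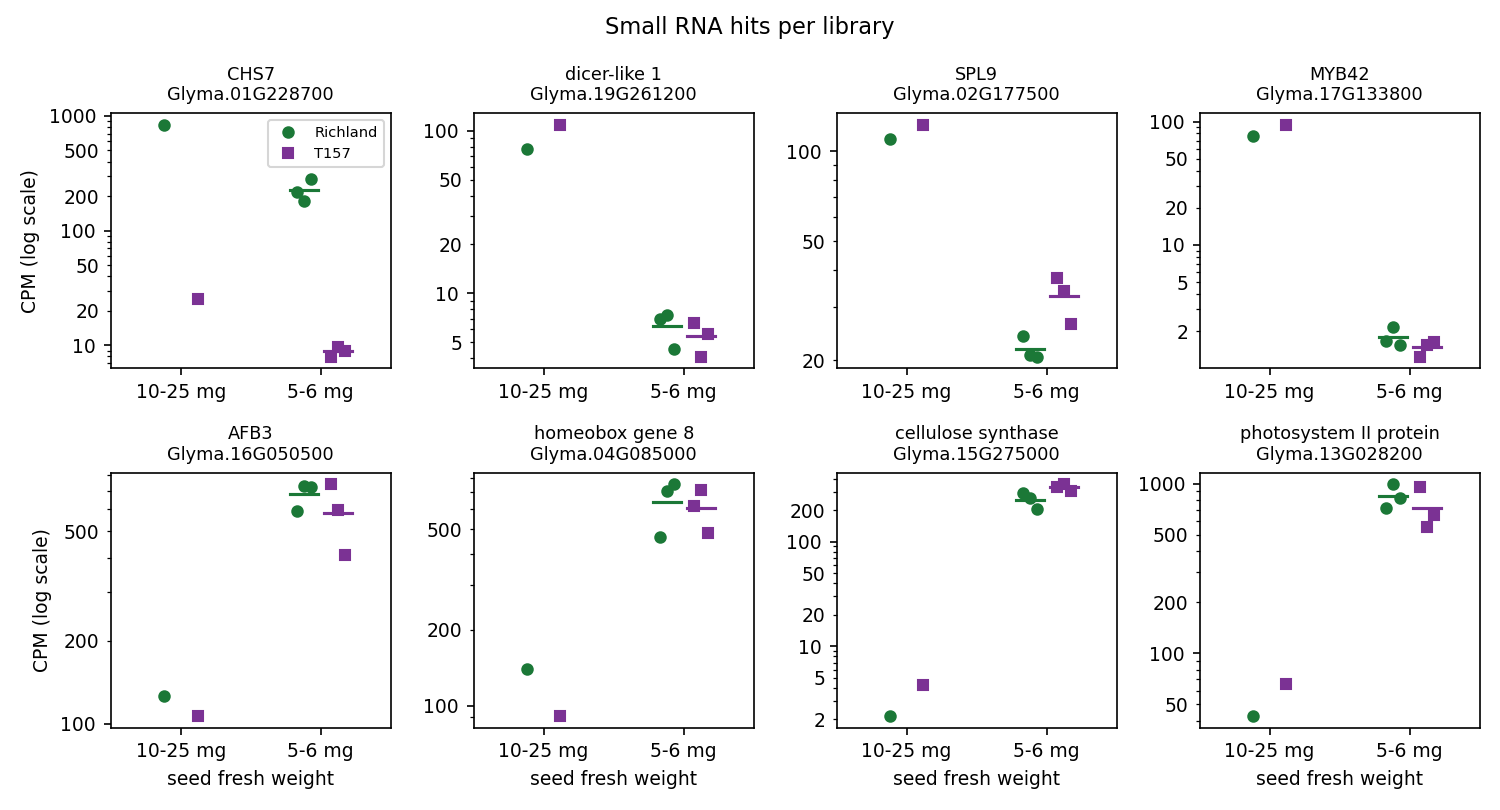
CPM on a log scale in each of the 8 libraries for 8 genes, with 10-25 mg on the left and 5-6 mg on the right, Richland as circles, T157 as squares and bars at the mean of 3 libraries. In each panel the 2 lines moved the same way, and CHS7 is the panel in which Richland (840 CPM at 10-25 mg) lies far above T157 (25.4 CPM).

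Other enzymes of the phenylpropanoid and flavonoid pathways went in both directions. All 12 tested genes were called, 4 higher (33.3%) and 8 lower (66.7%), against 34.9% and 43.3% of all tested genes. With RLE factors 4 were higher and 6 lower. Phenylalanine ammonia-lyase 1 (Glyma.13G145000), the entry enzyme of the pathway, had 3.95 and 9.39 CPM at 10-25 mg against 55.2 to 112 CPM at 5-6 mg, while ammonia-lyase 2 (Glyma.10G209800) had 6.79 and 6.90 CPM against 1.36 to 2.39 CPM. Of 2 genes of 4-coumarate:CoA ligase 3, which activates cinnamic acids, Glyma.11G091600 had 1 hit at 10-25 mg and 530 at 5-6 mg. The pooled CPM ratio was 326 times lower, with a counting interval of 58.2 to 12895 at 95%. Glyma.01G232400 had 3.35 and 5.32 CPM at 10-25 mg and 3 hits in all at 5-6 mg, 71.0 times higher with a counting interval of 23.8 to 349. Glyma.11G091600 belongs to a near-equal set of 9 genes and Glyma.01G232400 to a set of 5, so these hits cannot be assigned to the ligase genes alone. Flavanone 3-hydroxylase had 4 tested genes, and Glyma.01G166200 fell by 3.58 on the log2 scale.

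Among the wider gene lists, hits on transposon-related genes, mostly of the hAT family of DNA transposons, had the largest share of higher calls after CHS. Of 99 tested genes, in 61 near-equal sets, 86 (86.9%) were called higher and 8 lower, against 34.9% and 43.3% of all tested genes. The 86 higher genes lay in 48 of these sets, and the median log2 fold change of the list was 0.95. The summed level under TMM was 2376 to 2580 CPM at 10-25 mg against 998 to 1526 CPM at 5-6 mg. Without factors the older T157 coat lay below its younger coats, and the older Richland coat lay within the range of its own. The count moved with the scaling of all genes, with 15 higher and 8 lower with no factors (median 0.04) and 44 higher and 6 lower when library sizes were set to reads. Relative to the median of all genes the list kept its place, at 1.44 under TMM and 1.41 with no factors. Glyma.13G192700 had 81.7 and 69.2 CPM at 10-25 mg against 32.6 to 54.3 CPM, a difference of 0.92 on the log2 scale. Glyma.15G187500, also of the hAT type, had 6.19 and 8.31 CPM against 21.5 to 50.3 CPM and fell by 2.29.

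Auxin signalling, NAC factors and ribosomal proteins were among the lists with a larger share of lower calls than all tested genes (43.3%). Of 176 tested auxin genes, 98 (55.7%) were called lower and 12 higher, with a median log2 fold change of -1.33 (-0.85 relative to all genes), and the receptors above were part of that list. In all 62.5% of auxin genes were called, a smaller share than the 78.2% of all tested genes. The GH3 gene Glyma.07G057900, of a family that conjugates auxin or jasmonate to amino acids, had 0.250 and 0.249 CPM at 10-25 mg against 21.6 to 32.7 CPM at 5-6 mg. NAC transcription factors had 35 of 49 genes (71.4%) lower and 8 higher, with a median of -2.38 (-1.89 relative to all genes). Glyma.19G002900, matched to SOG1 of the DNA damage response, had 1.05 and 1.33 CPM at 10-25 mg. In the younger coats it had 61.2, 90.8 and 56.6 CPM in Richland and 70.0, 74.8 and 59.0 CPM in T157. In contrast, the xylem NAC factor Glyma.08G181100 (XND1), known in Arabidopsis as a brake on xylem formation, had 8.19 and 4.99 CPM against 0.167 to 0.373 CPM. Of the tested ribosomal protein genes, 80 (61.1%) were lower and 36 (27.5%) higher, with a median of -1.42 (-0.94 relative to all genes). Their summed level was nonetheless 3164 to 3580 CPM against 2637 to 3057 CPM under TMM, while without factors it was lower at 10-25 mg. The lower share stayed the larger one in these 3 lists under each of the 5 scalings.

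Disease resistance genes, many of which give rise to phased small interfering RNAs in legumes, had a smaller share of calls than all tested genes. Of 339 tested genes 197 (58.1%) were called, 107 higher and 90 lower, against 78.2% of all tested genes. The median log2 fold change was 0.16 under TMM and -0.72 with no factors, and relative to all genes it was 0.64 under both. Among the members with most hits, Glyma.04G219632 had 924.7 and 762.0 CPM at 10-25 mg against 616 to 1130 CPM at 5-6 mg and was not called. Single genes of the list shifted in both directions. Glyma.16G192300 had 35.5 and 50.5 CPM against 0.355 to 1.28 CPM, and Glyma.16G187700 had 2.05 and 2.49 CPM against 105 to 168 CPM. Pentatricopeptide repeat genes, which edit and process organelle RNA, had 51 of 147 called higher (34.7%) and 57 lower (38.8%), near the shares of all tested genes (34.9% and 43.3%).

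Genes of cell wall growth and of cell division are set beside the 34.9% higher and 43.3% lower of all tested genes. Cell wall genes had 66 of 189 (34.9%) higher and 89 (47.1%) lower. Cellulose synthase Glyma.15G275000, matched to CESA3 of the primary wall, had 2.15 and 4.24 CPM at 10-25 mg. The younger coats had 293, 259 and 205 CPM in Richland and 333, 355 and 305 CPM in T157, so that it fell by 6.56 ± 0.48 on the log2 scale (SE; adjusted p = 4.96e-14, edgeR quasi-likelihood), and 99.9% of its hits at 5-6 mg were sense. Of the tested cell cycle and motor genes, 27 (26.0%) were higher and 51 (49.0%) lower, and histones had 6 of 21 higher and 10 lower. The A-type mitotic cyclin Glyma.04G071600 had 0.949 and 1.58 CPM against 16.4 to 31.9 CPM. It belongs to a near-equal set of 7 genes, so its hits cannot be assigned to the cyclin alone. The kinesin Glyma.18G221600 (ARK2) had 50.1 and 65.01 CPM against 1.46 to 4.92 CPM, with all hits antisense.

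The next 7 lists, from MYB factors to sulfate and phosphate supply, had 32.1 to 40.9% of tested genes higher and 38.6 to 54.5% lower, around the 34.9% and 43.3% of all tested genes, so these counts do not set them apart. MYB factors had 37 of 111 genes higher and 52 lower. Glyma.17G133800 (MYB42), known in Arabidopsis for secondary walls, had 76.3 and 94.4 CPM at 10-25 mg against 1.24 to 2.17 CPM at 5-6 mg. It rose by 5.71 ± 0.32 on the log2 scale (SE; adjusted p = 1.29e-16, edgeR quasi-likelihood). Glyma.02G110100 (MYB106), which shapes the epidermis in Arabidopsis, had 4.49 and 2.99 CPM against 47.8 to 61.3 CPM. Homeobox factors had 30 of 92 higher and 46 lower, and AP2 and ERF factors had 16 of 44 higher and 17 lower. Glycine-rich and proline-rich proteins had 24 of 61 higher and 28 lower, laccases and copper proteins 9 of 28 and 14, growth-regulating and TCP factors 8 of 24 and 10. Sulfate and phosphate supply had 9 of 22 higher and 12 lower. Sugar and amino acid transport, the supply route through the coat, had 54 of 124 (43.5%) higher and 41 lower under TMM and 36 higher and 53 lower with no factors. Its median stayed 0.91 (TMM) and 0.92 (no factors) above that of all genes. In that list Glyma.11G224233, of the major facilitator family, had 203 and 274 CPM at 10-25 mg against 0.836 to 4.49 CPM at 5-6 mg.

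Lists picked by description as markers of other tissue also changed. They are set beside the 34.9% higher and 43.3% lower of all tested genes. The 159 photosynthesis genes summed to 161 and 221 CPM at 10-25 mg against 771 to 1262 CPM at 5-6 mg, with 9 of 30 tested genes higher (30.0%) and 16 lower (53.3%), and with 57 of them at 0 at 10-25 mg and 61 at 5-6 mg. A single photosystem II gene, Glyma.13G028200, carried most of that sum at 5-6 mg, with 42.4 and 65.5 CPM at 10-25 mg against 715, 994 and 826 CPM in Richland and 953, 556 and 656 CPM in T157 at 5-6 mg. Its hits were 99.0% sense at 10-25 mg and 99.4% at 5-6 mg. Another photosystem II gene, Glyma.06G217900, rose by 3.18 on the log2 scale, but its sense hits alone gave -1.34 and were not called. The 390 genes of seed storage and late embryogenesis, used as markers of embryo, summed to 415 and 538 CPM against 266 to 383 CPM. Of 62 tested genes 15 were higher (24.2%) and 34 lower (54.8%), so under TMM the sum rose while more genes fell. Without factors the sum of the older coat lay above all younger coats in neither line, and 9 genes were higher and 39 lower. The list takes in the lipid-transfer and 2S albumin superfamily, so it may not mark embryo alone. Of these 390 genes, 214 were at 0 at 10-25 mg and 227 at 5-6 mg. One late embryogenesis gene, Glyma.16G031000, had the most hits of them at 10-25 mg, with 165 and 254 CPM against 9.31 to 16.1 CPM. What part green tissue or embryo had in the differences was not tested.

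**Figure D5:**
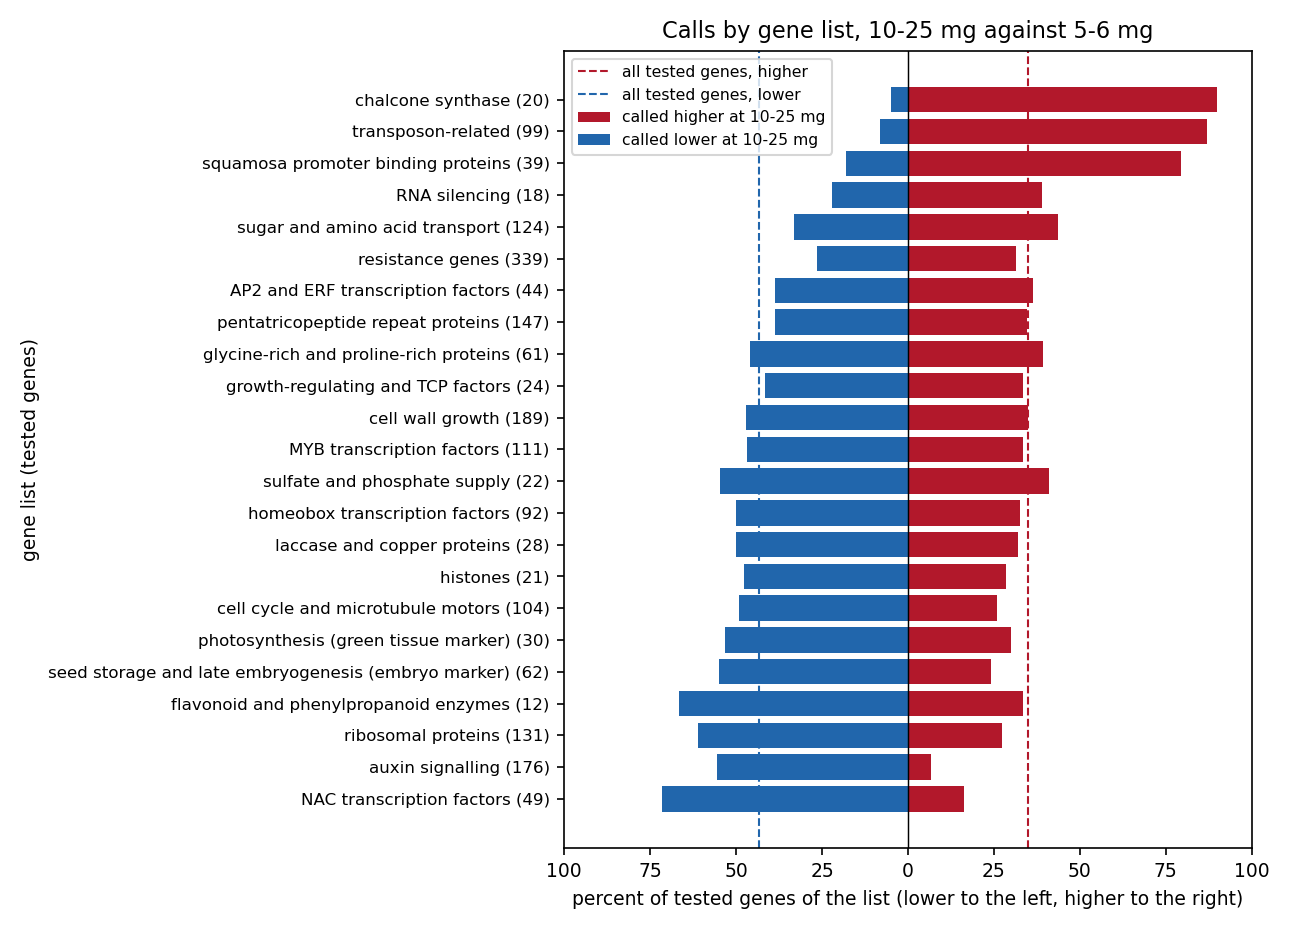
Percent of tested genes called higher (right, red) and lower (left, blue) at 10-25 mg in each of 23 gene lists, with the number of tested genes in brackets and the shares of all tested genes as dashed lines (34.9% and 43.3%). CHS, transposon-related and SPL genes extend farthest to the right, and NAC factors, flavonoid and phenylpropanoid enzymes and ribosomal proteins farthest to the left.

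The 12 largest shared changes in each direction, counted where the mean over the 8 libraries was 5 CPM or more, went between near-absence and a clear level. Glyma.19G154300, a tetratricopeptide repeat protein, had 29.6 and 33.9 CPM at 10-25 mg, from 1000 hits, against 0 to 0.0971 CPM at 5-6 mg, from 2 hits. Its pooled ratio was 813, with a counting interval of 225 to 6724 at 95%. Glyma.14G091700, a KH domain protein of the exonuclease type, had 149.2 and 215 CPM against 0.119 to 1.17 CPM, all antisense. Glyma.05G079900, an FAD-dependent oxidoreductase, had 128 and 205 CPM against 0.291 to 1.37 CPM. Glyma.03G215800, a pectin methylesterase inhibitor family protein, had 32.9 and 43.6 CPM against 0 to 0.239 CPM. The other 8 of the 12 higher genes had 21.1 to 139.2 CPM at 10-25 mg and at most 0.911 CPM at 5-6 mg. In each of the 12, 99.0 to 100% of hits at 10-25 mg were on 1 strand.

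In the other direction, Glyma.14G098200, without a description, had no hit at 10-25 mg and 667 hits at 5-6 mg. It had 12.4, 18.0 and 7.76 CPM in Richland and 15.2, 14.2 and 11.03 CPM in T157 at 5-6 mg, and was at least 136.7-fold lower at 10-25 mg when the floor is 3 counts over both libraries. The same bound was 109-fold for Glyma.19G229700, a DnaJ-type chaperone, 103-fold for Glyma.10G147200 (lon protease 1, of mitochondria) and 73.6-fold for Glyma.05G239500 (response regulator 2, of cytokinin signalling). Glyma.18G173300, without a description, had 2 hits at 10-25 mg and 1347 at 5-6 mg, and Glyma.02G240000 (polyamine oxidase 4) had 1 against 686. Several of these belong to near-equal sets of up to 11 genes, so the 12 names do not stand for 12 separate small RNA sources. The counting intervals cover counting error only.

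Levels of these genes in 7 other seed coat libraries are set beside them in hits per M without factors, and their weights differ from those above. Glyma.15G275000 had 1.58 and 2.25 at 10-25 mg against 239 to 480 at 5-6 mg, with 0.912 to 46.9 in the other coats. MYB42 had 56.1 and 50.2 against 1.31 to 2.10, with 54.7 to 136 in the other coats. Dicer-like 1 (Glyma.19G261200) had 56.7 and 58.1 against 5.52 to 8.56, with 45.0 to 93.6. SPL12 (Glyma.09G082000) had 36.5 and 35.2 against 1.69 to 2.90, but 0.272 to 119 in the other coats, so for this gene the older coats did not all lie on the side of 10-25 mg. CHS7 had 617 in Richland and 13.5 in T157 at 10-25 mg against 8.397 to 360.0 at 5-6 mg, with 1039 to 1772 in the Clark coats of 50-100 mg and 29.5 in Williams 44, which carries i. Of the 35 named genes that were higher, 24 were above each 5-6 mg library in all 27 other libraries, and of the 35 that were lower, 28 were below. Among all genes with a shared change, 15.4% of the higher and 40.9% of the lower ones did so, and among all tested genes 5.26% and 19.6%. The genes were chosen on the same 5-6 mg libraries, which these comparisons share, so these counts describe the 5-6 mg libraries and give no further support.

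The most abundant small RNA sources had no description. Glyma.13G012400 had 141493 and 242875 CPM at 10-25 mg against 83850 to 161695 CPM at 5-6 mg and was not called (0.67, adjusted p = 0.123, edgeR quasi-likelihood). Glyma.02G254100 had 586 and 747 CPM at 10-25 mg. Levels at 5-6 mg were 29651, 45333 and 39423 CPM in Richland and 62295, 15181 and 15304 CPM in T157, a fall of 5.68 ± 0.63 on the log2 scale. Glyma.07G052000, one of a set of genes with nearly the same hits, had 31088 and 30907 CPM against 5014 to 10173 CPM, a rise of 1.99 on the log2 scale. In all, 2083 tested genes had no description, and 1607 of them had a shared change, a share near the 75.8% of all tested genes. Since a few such genes held a large part of all hits, they bear on any scaling by total hits.

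Strand was compared in 3874 of the 13868 tested genes, those with at least 10 hits in every library. Of these, 1970 had at least 95% of hits on 1 strand at 10-25 mg and 1731 at 5-6 mg, and 1509 had them on the same strand at both. The sense share moved by at least 50 points in both lines in 192 genes, 110 of them toward sense and 82 toward antisense at 10-25 mg. Counted by strand, 6478 of 8430 tested genes changed in sense hits and 6139 of 7677 in antisense hits.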

How the data were processed

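The deposited counts are raw numbers of small RNA read hits on 86256 transcript models, split by strand, per the file headers. Reads were aligned with Bowtie 1, as the submitters' processing notes say, while allowed mismatches, the sizes kept and the genome build were not given in the sources used here. RPM of CHS7 and CHS8 were deposited by the authors as counts over M reads of the library, per the file headers. Gene descriptions and Arabidopsis symbols are those deposited with the table.

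Each gene was represented by its lowest splice form, and total sense and antisense hits were summed. Tests used edgeR 4.0.16 in R 4.3.3 with the quasi-likelihood F test, terms for line and weight, TMM factors and filterByExpr by weight (minimum count 10, minimum total 15). The Benjamini-Hochberg adjusted p was computed over all 13868 tested genes, and 0.05 was the threshold. The same code was tested on simulated data. Log2 ratios within a line used CPM + 0.5. Pooled ratios of genes with 1 to 3 hits in a group have exact binomial intervals at 95%, and a group with 0 hits was set to a floor of 3 counts. Counts per library ranged from 6.49 to 27.3 M gene hits, and these intervals cover counting error only.

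Alternatives were RLE factors, no factors, library sizes set to reads, DESeq2 1.42.0, other filters, single strands, unique hits, merged near-equal genes, each line alone, each library left out and a replicate block. Named genes were the 12 largest shared changes per direction with a mean of at least 5 CPM, CHS7, CHS8 and the smallest p per list and direction. The members, gene lists, microRNA families and tests were chosen, and the lists trimmed, with earlier results of these data known. Members of microRNA families and list members with many hits were also named after their values were seen. No sequences are shown.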

Additional observations from a re-analysis of the deposited data

How the results depend on the processing

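Of 10843 genes called, other scalings gave 10083 (RLE), 10759 (no factors), 9034 (library sizes set to reads) and 9600 (DESeq2). With no filter 17294 of 36623 genes were called and 16259 had a shared change, and with a minimum count of 50 there were 4462 calls. Antisense hits alone gave 6139 calls and 5978 shared changes, sense hits alone 6478 calls, and near-equal genes merged 7223, each with fewer genes tested. A test of changes above 1 on the log2 scale called 7619 genes, and counts thinned to the gene hits of the shallowest library 9344 of 12947 tested, both added after the data had been seen. Leaving out each library in turn gave 8024 to 10893 calls. The interaction by line stayed at 0 to 11 calls when a 5-6 mg library was left out, with 11 without Richland replicate 1. Glyma.06G217900 had -1.34 on sense hits alone (adjusted p = 0.0543, edgeR quasi-likelihood). The cause was not tested. With a replicate block 10659 genes were called. Deviations of same-numbered libraries correlated at -0.06 in Richland 1 and -0.15 in T157 3, so the numbers were not shown to pair libraries. For named genes, 1593 values under these alternatives kept their direction and their side of the threshold, and besides the reversal above 1 did not, that of Glyma.04G067300 on antisense hits. Most of these genes were chosen for large changes or small p in the same data, so this count gives no independent support. With 1 library per line at 10-25 mg, the spread at that weight cannot be estimated within a line, and the model takes it from all 8 libraries. Kit and sequencer cannot be told apart from weight.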
